A study of Mus musculus with 9 samples.

Results

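Actin is the protein of the thin filament in muscle and of the microfilaments in every cell, and mice carry 6 genes for it. Acta1, Actc1, Acta2 and Actg2 encode the skeletal, cardiac, vascular smooth muscle and enteric smooth muscle isoforms, and Actb and Actg1 encode the cytoplasmic β- and γ-actin. Cardiomyocytes switch between the muscle isoforms as they develop: the fetal heart uses Acta2 and Acta1 beside Actc1, and Actc1 remains as the main isoform of the adult rodent heart. Transcription of the muscle genes depends on serum response factor (SRF), which binds CArG boxes, with its coactivators myocardin and the myocardin-related factors, and TEAD factors bind MCAT elements in several of the same promoters. The 6 members were taken by symbol from a table of 38293 genes, and all 6 were among the 15318 genes that passed the filter on low counts.

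RNA came from whole ventricles of mice at postnatal day 7. The 5 control animals were Arid1a f/f, that is, homozygous for the floxed gene without Cre. The 4 cKO animals were aMHC-Cre;Arid1a f/f littermates, in which the α-myosin heavy chain promoter drives Cre in cardiomyocytes only, so other ventricular cells keep the gene and the controls do not carry the Cre transgene. Effects of Cre itself and of the deletion cannot be told apart here. In whole tissue, fewer cells of a type and less RNA per cell of that type also cannot be told apart.

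Library totals ran from 31011055 to 40073801 counts. Arid1a lay between 128.05 and 148.1 CPM (the read count scaled to library size, after TMM normalisation) in controls and between 100.3 and 112.9 CPM in cKO, so each library matched its label. The libraries fell into 2 sets that cut across genotype, by the level of the ribosomal protein gene copy Rps3a3: control replicates 1 and 2 with cKO replicates 1 to 3 were low, and control replicates 3 to 5 with cKO replicate 4 were high. The labels give no batch, and values within each set are given where they bear on a result. A gene was called when its adjusted p was below 0.05 with more than 1.5-fold difference, which held for 1030 of 15318 genes (6.72%), with 4.01% called higher in cKO and 2.72% called lower.

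The promoters are shown because CArG and MCAT elements are the sites through which the muscle actin genes are known to be regulated together. Sequences are from RefSeq on GRCm38.p6, 5′ to 3′ on the transcribed (minus) strand, with position -1 the last base before the RefSeq start site, and 250 bases were searched. Capitals mark matches to the CArG box, which is CC and GG around 6 bases that are all A or T, to the same box with 1 G or C among the 6, and to the MCAT element CATTCC on either strand. Acta1 and Actc1 are shown as stretches that end before any annotated GENCODE exon, and Acta2 and Actg1 as short sites around matches. In Acta2, 217 of the 250 bases lie in GENCODE exons, and all 3 matches are among them. In Actg1, 47 of the 250 bases do, and its CArG box is not among them. Entries were found for 4 of the 6 members.
Acta1, chr8:123894776-123895025: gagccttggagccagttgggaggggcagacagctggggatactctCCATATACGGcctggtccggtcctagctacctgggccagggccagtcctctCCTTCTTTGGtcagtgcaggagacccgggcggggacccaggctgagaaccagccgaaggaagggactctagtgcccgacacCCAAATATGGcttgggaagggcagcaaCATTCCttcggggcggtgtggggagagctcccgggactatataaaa
Actc1, chr2:114052888-114053125: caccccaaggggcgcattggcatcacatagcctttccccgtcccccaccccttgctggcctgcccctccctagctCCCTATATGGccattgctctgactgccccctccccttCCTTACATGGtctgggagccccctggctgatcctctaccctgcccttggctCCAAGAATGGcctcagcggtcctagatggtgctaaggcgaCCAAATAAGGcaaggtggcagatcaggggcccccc
Acta2, chr19:34255502-34255531: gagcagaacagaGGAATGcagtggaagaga
Acta2, chr19:34255438-34255467: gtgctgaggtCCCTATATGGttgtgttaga
Acta2, chr19:34255388-34255417: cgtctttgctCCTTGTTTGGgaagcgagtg
Actg1, chr11:120348566-120348595: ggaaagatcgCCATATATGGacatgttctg

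An exact CArG box was present in the Acta1 promoter (first base at -73), in Actc1 (-47) and in Actg1 (-90), against 1.47% of 32851 mouse promoters of this length. Acta2 held no exact box in this window but 2 boxes with 1 mismatch, first bases at -84 and -34, a form found in 7.24% of promoters. Acta1 held 2 further boxes of that form and Actc1 held 3. The MCAT element was found in Acta1 at -46 and, on the other strand, in Acta2 at -146, against 12.6% of promoters, and was not matched in the Actc1 or Actg1 window. No match overlapped another. These are matches of letters, and binding was not measured in these data.

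To see whether reads of such similar genes could have been assigned to the wrong member, every stretch of 75 bases, the read length, was compared between GENCODE transcripts. Acta2, Actc1 and Actg2 shared none of their windows with another gene. Acta1 had 99.6% of windows to itself and Actb 98.4%, and the 2 genes shared 3 windows. Actg1 differed from the rest, with 66.5% of its windows its own and 29.4% also present in the copy Gm12715, which was counted at 7 to 18 reads per library. Levels of Actg1 therefore depend on how reads with several matches were treated, which is not given in the sources used here. No exonic base of a member was shared with an opposite-strand gene, and on the same strand 83 exonic bases of Actg1 lie in the predicted miRNA gene Gm23419 and 64 in Mir6935.

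Actc1 (ENSMUSG00000068614, GRCm38 chromosome 2, 114047282 to 114053548), the cardiac isoform, was the most abundant actin and, by mean CPM, the gene of rank 7 in the ventricle. Control replicates 1 to 5 held 12682, 10241, 12097, 11015 and 12256 CPM, and cKO replicates 1 to 4 held 10305, 9826, 10106 and 11960 CPM. The groups overlapped, with cKO replicates 2 and 3 below the lowest control and replicates 1 and 4 inside the control range. Controls averaged 11658 ± 1002 CPM (SD, n = 5), and the average of cKO was 10549 ± 961 CPM (SD, n = 4). On the log2 scale the difference was -0.14, with an SE of 0.08 and a 95% interval from -0.32 to 0.03 (edgeR quasi-likelihood, adjusted p = 0.269). The lower end of that interval corresponds to 0.799 of the control level.

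Acta2 (ENSMUSG00000035783, chromosome 19, 34241090 to 34255590) encodes α-smooth muscle actin, which marks mural cells of vessels and, in development, cardiomyocytes. Controls held 635.4, 887.1, 632.4, 532.3 and 618.2 CPM, from replicate 1 to replicate 5. In cKO replicates 1 to 4 the values were 2051, 3165, 3296 and 2825 CPM. Every cKO library lay above every control, and the lowest, cKO replicate 1, stood at 3.10 times the control mean.

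Acta2 rose from a mean of 661.1 ± 133 CPM (SD, n = 5) to one of 2834 ± 559 CPM (SD, n = 4). The rise was 2.10 on the log2 scale, with an SE of 0.16 and a 95% interval from 1.74 to 2.46 (edgeR, adjusted p = 1.2e-05). Acta2 passed in all 20 alternative fits, with changes between 1.90 and 2.23 on the log2 scale. Within the Rps3a3-low set the difference of mean log2 levels was 1.89, from 2 controls and 3 cKO libraries, and within the Rps3a3-high set, with 1 cKO library, it was 2.25.

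Acta1 (ENSMUSG00000031972, chromosome 8, 123891769 to 123894751), the skeletal isoform, was the member that varied most between animals of 1 genotype. Control replicates 1 to 5 held 86.3, 56.4, 46.2, 43.2 and 47.2 CPM. cKO replicates 1 to 4 held 53.6, 363.4, 402.2 and 195.7 CPM. Replicate 1 of the cKO thus lay inside the control range, at 0.959 times the control mean, while the other 3 stood at 6.50, 7.20 and 3.50 times that mean. Within its own Rps3a3-low set, cKO replicate 1 was below both controls, which were at 86.3 and 56.4 CPM.

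Acta1 rose from a mean of 55.9 ± 17.7 CPM (SD, n = 5) to one of 253.7 ± 161 CPM (SD, n = 4). The rise of 2.18 on the log2 scale, with an SE of 0.56 (edgeR, adjusted p = 0.0369), was close to that of Acta2, but its 95% interval from 0.88 to 3.48 was wider. When each of the 9 libraries was omitted in turn, 2 fits kept an adjusted p under 0.05: without cKO replicate 1 the change was 2.52 (adjusted p = 0.00216 by edgeR) and without control replicate 1 it was 2.39 (adjusted p = 0.0458). In the other 7, without any one of control replicates 2 to 5 or cKO replicates 2 to 4, the change lay between 1.87 and 2.29 and the adjusted p between 0.0668 and 0.0978, and with the library set as a term it was 2.001 (adjusted p = 0.0631). Within the Rps3a3-low set alone the difference of mean log2 levels was 1.504, and within the Rps3a3-high set it was 2.09.

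Acta1 and Acta2 were the 2 of 6 members that were called, both higher in cKO, where 4.01% of all genes were called higher; 0 of 6 were called lower, by edgeR, and 0 had a fall at an unadjusted p under 0.05 in edgeR. Acta2 was the 1 of 6 members whose groups did not overlap; over all genes tested 16.7% did not, 8.16% with cKO higher and 8.58% with cKO lower.

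**Figure D1:**
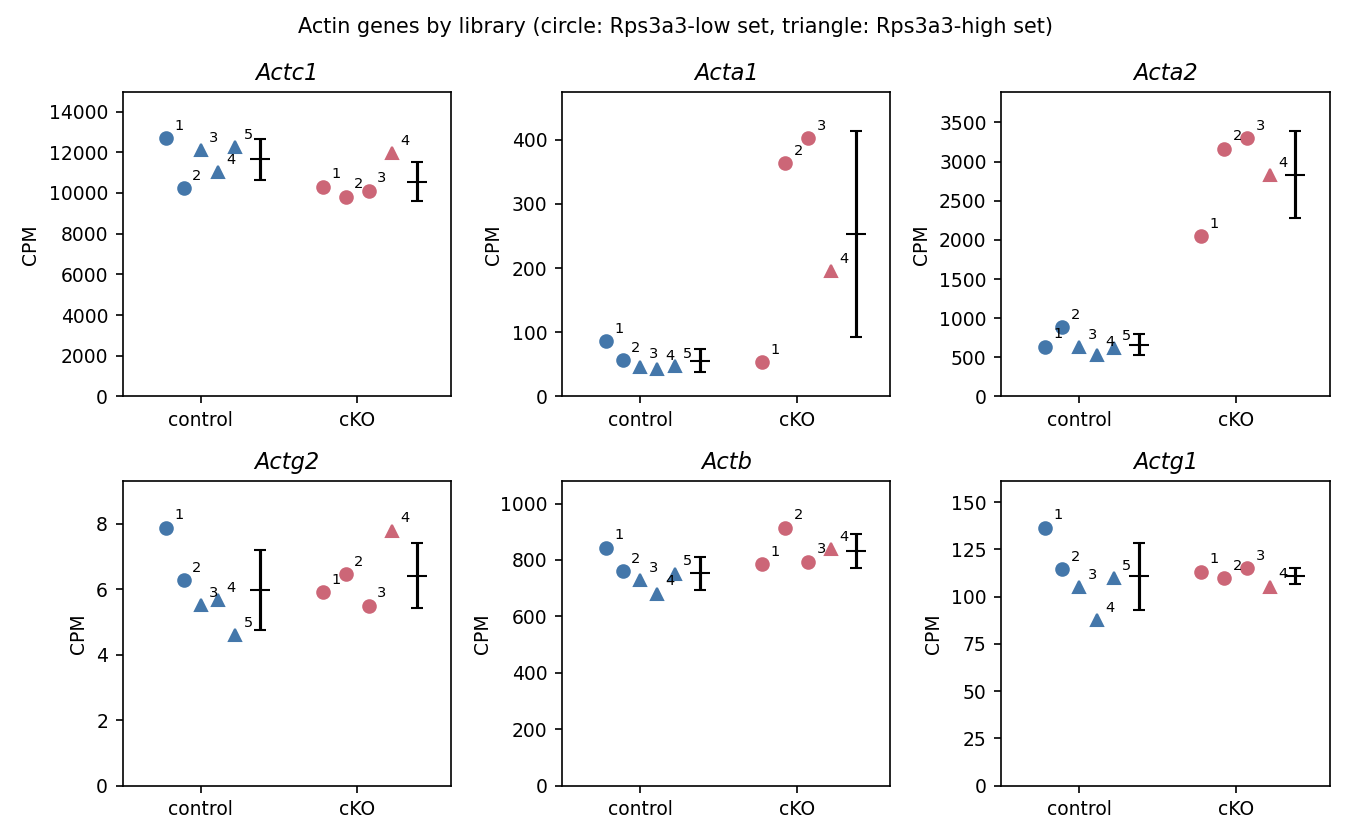
Level of each actin gene in CPM (linear axes from 0) in every library, labelled by replicate number, with circles for the Rps3a3-low and triangles for the Rps3a3-high set; the black bar is the mean ± SD of the group. Acta2 is separated between the groups, Acta1 is high in cKO replicates 2 to 4 and at 53.6 CPM in cKO replicate 1, and the other 4 genes overlap.

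The order of the libraries was alike for these 2 genes within the cKO group. Replicate 1 was lowest, then 4, 2 and 3, for Acta1 as for Acta2. Among controls the order was not shared: Acta1 was highest in replicate 1, at 86.3 CPM, and Acta2 in replicate 2, at 887.1 CPM. The cKO library with the least Acta1 still held 2051 CPM of Acta2. Counts of Acta1 per 100 counts of Actc1 were 0.520 in cKO replicate 1 and 1.64 to 3.98 in the others, while those of Acta2 ran from 19.9 to 32.6. In controls these ratios were 0.382 to 0.681 for Acta1 and 4.83 to 8.66 for Acta2.

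**Figure D2:**
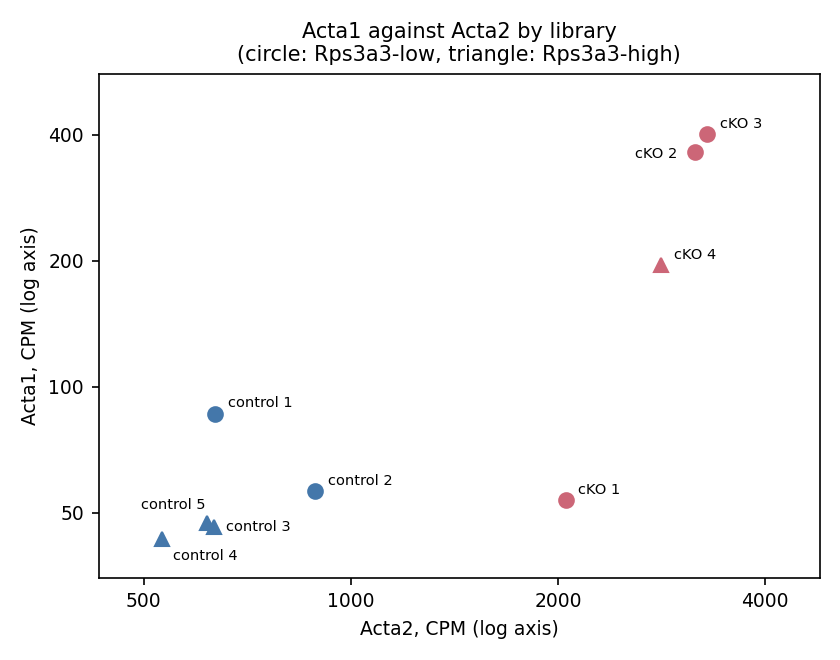
Acta1 against Acta2 in CPM per library, both on log axes, blue for control and red for cKO, circles for the Rps3a3-low and triangles for the Rps3a3-high set. cKO replicate 1 lies to the right of all controls at 2051 CPM of Acta2 but at the height of the controls for Acta1.

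Actg2 (ENSMUSG00000059430, chromosome 6, 83512905 to 83536265), the smooth muscle isoform of the gut and bladder, was scarce, with 142 to 322 counts per library. It was at 4.59 to 7.88 CPM in controls and 5.50 to 7.80 CPM in cKO, and the cKO range lay inside that of the controls. The log2 difference of 0.10 had an SE of 0.16 and a 95% interval from -0.26 to 0.46 (edgeR, adjusted p = 0.725). That interval does not reach the one of Acta2, the other smooth muscle isoform, and the difference between the 2 changes was not itself tested. Within the Rps3a3-low set the Actg2 difference was -0.23 and within the Rps3a3-high set it was 0.53, so it had no common direction.

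The cytoplasmic isoforms Actb and Actg1 form the cortical and stress fibre microfilaments of all ventricular cells. Actb (ENSMUSG00000029580, chromosome 5, 142903115 to 142906754) held 843.1, 761.3, 728.5, 680.3 and 751.6 CPM over the controls, from replicate 1 to replicate 5. The cKO libraries, from replicate 1 to replicate 4, held 784.1, 914.5, 794.2 and 837.6 CPM, and replicate 2 was the 1 that lay above the highest control. On the log2 scale the difference was 0.15, with an SE of 0.07 and a 95% interval from -0.01 to 0.30 (edgeR, adjusted p = 0.21).

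Actg1 (ENSMUSG00000062825, chromosome 11, 120345690 to 120348542) averaged 110.7 ± 17.6 CPM over the controls (SD, n = 5), and 110.9 ± 4.29 CPM over the cKO libraries (SD, n = 4). The 4 cKO libraries, between 105.4 and 115.2 CPM, lay within the control range of 87.7 to 136.5 CPM. The log2 difference of 0.0015 had an SE of 0.10 (edgeR, adjusted p = 0.995), and its 95% interval of -0.22 to 0.22 corresponds to between 0.858 and 1.17 times the control level. Its sign turned negative with RLE scaling, without the filter on low counts and within the Rps3a3-low set, so no direction can be given.

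**Figure D3:**
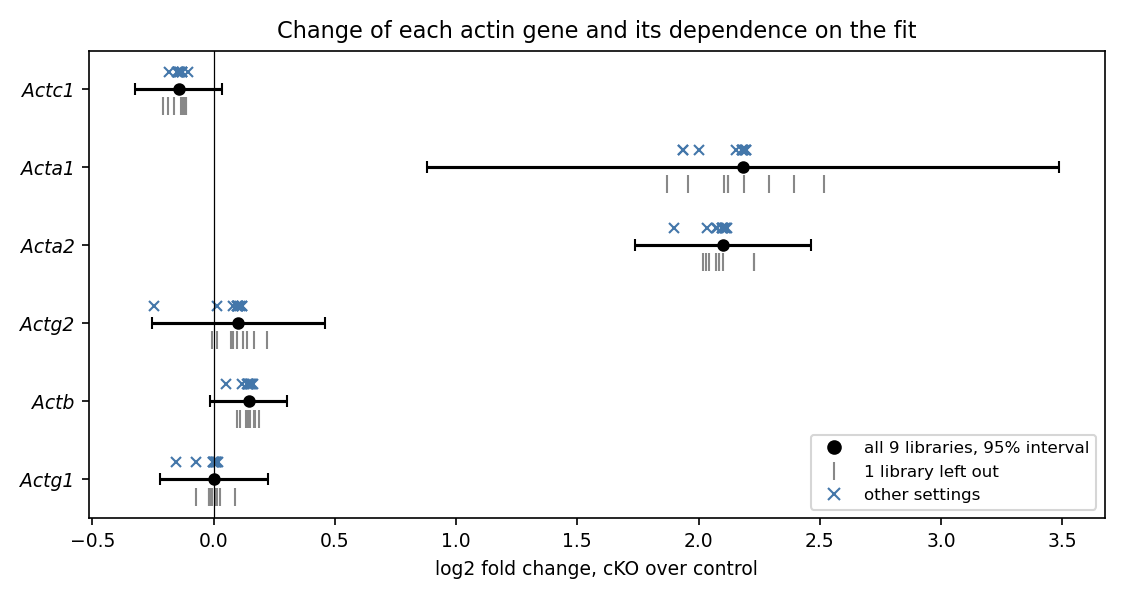
Log2 fold change of each member in cKO over control: black points with the 95% interval of the fit to all 9 libraries, grey ticks for fits without 1 library, blue crosses for other settings. Acta1 at 2.18 and Acta2 at 2.10 have similar values, and the interval of Acta1 is the wider.

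Levels of different genes were compared per kilobase of merged exon. In controls the order was Actc1 at 7205 ± 620 CPM per kilobase, Acta2 at 301.0 ± 60.7, Actb at 281.1 ± 22.1, Actg1 at 41.7 ± 6.63, Acta1 at 36.4 ± 11.5 and Actg2 at 3.85 ± 0.784 (mean ± SD, n = 5). The ranges of Acta2 and Actb overlapped, as did those of Actg1 and Acta1, and the other neighbours in this order were apart in all libraries. In cKO, Acta2 at 1291 ± 254 CPM per kilobase stood above Actb at 310.8 ± 22.1 without overlap (mean ± SD, n = 4). Acta1 at 165.2 ± 105 CPM per kilobase had a higher mean than Actg1 at 41.7 ± 1.61, but with cKO replicate 1 at 34.9 their ranges overlapped.

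The 6 genes together made up 1.16% to 1.42% of all counts in controls and 1.36% to 1.64% in cKO. Their levels summed to 13245 ± 988 CPM over the controls (SD, n = 5), against 14587 ± 1079 CPM in cKO (SD, n = 4), with overlap. The groups were apart in the composition of this pool. From replicate 1 on, Actc1 took 88.1%, 84.9%, 88.9%, 89.1% and 88.9% of actin counts in the 5 controls. In the 4 cKO libraries it took 77.4%, 68.3%, 68.7% and 75.1%. Counting error was small beside this, since the widest 95% Wilson interval of a share had a half-width of 0.128 percentage points, which covers counting error only.

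The mean share of Actc1 fell by 15.6 percentage points, from 88.0% to 72.4%, and the groups did not overlap (two-sided exact permutation p = 0.00794, the smallest that all splits of 9 libraries allow). The share of Acta2 rose from 5.04% ± 1.30 (SD, n = 5) to 19.4% ± 3.39 (SD, n = 4), again without overlap (exact permutation p = 0.00794). The controls, from replicate 1 on, stood at 4.42%, 7.35%, 4.64%, 4.30% and 4.48%, and the cKO libraries at 15.4%, 22.002%, 22.4% and 17.7%. The p-values of the 6 shares are unadjusted, and because shares sum to a fixed total they are not independent: the lower share of Actc1 accompanied a level of Actc1 that did not pass its own test.

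The share of Acta1 was 0.340% to 0.5997% in controls and 0.403%, 2.53%, 2.73% and 1.23% in cKO replicates 1 to 4 (exact permutation p = 0.0238). It overlapped between the groups through cKO replicate 1, and the p was 0.15 when labels were permuted only within the library sets and above 0.05 in 8 of the 9 comparisons that left out 1 library. Actb held 5.69% ± 0.393 of actin counts in controls (SD, n = 5) and 5.73% ± 0.501 in cKO (SD, n = 4; exact permutation p = 0.937). Actg1 held 0.835% and 0.764% (exact permutation p = 0.286), and within the library sets the difference was -0.127 percentage points with an exact permutation p of 0.025, the smallest those 40 splits allow. Actg2 held 0.0453% and 0.0439% (exact permutation p = 0.794). Per kilobase of exon the shares of Actc1 and Acta2 were 91.5% and 3.87% in controls and 78.3% and 15.5% in cKO.

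**Figure D4:**
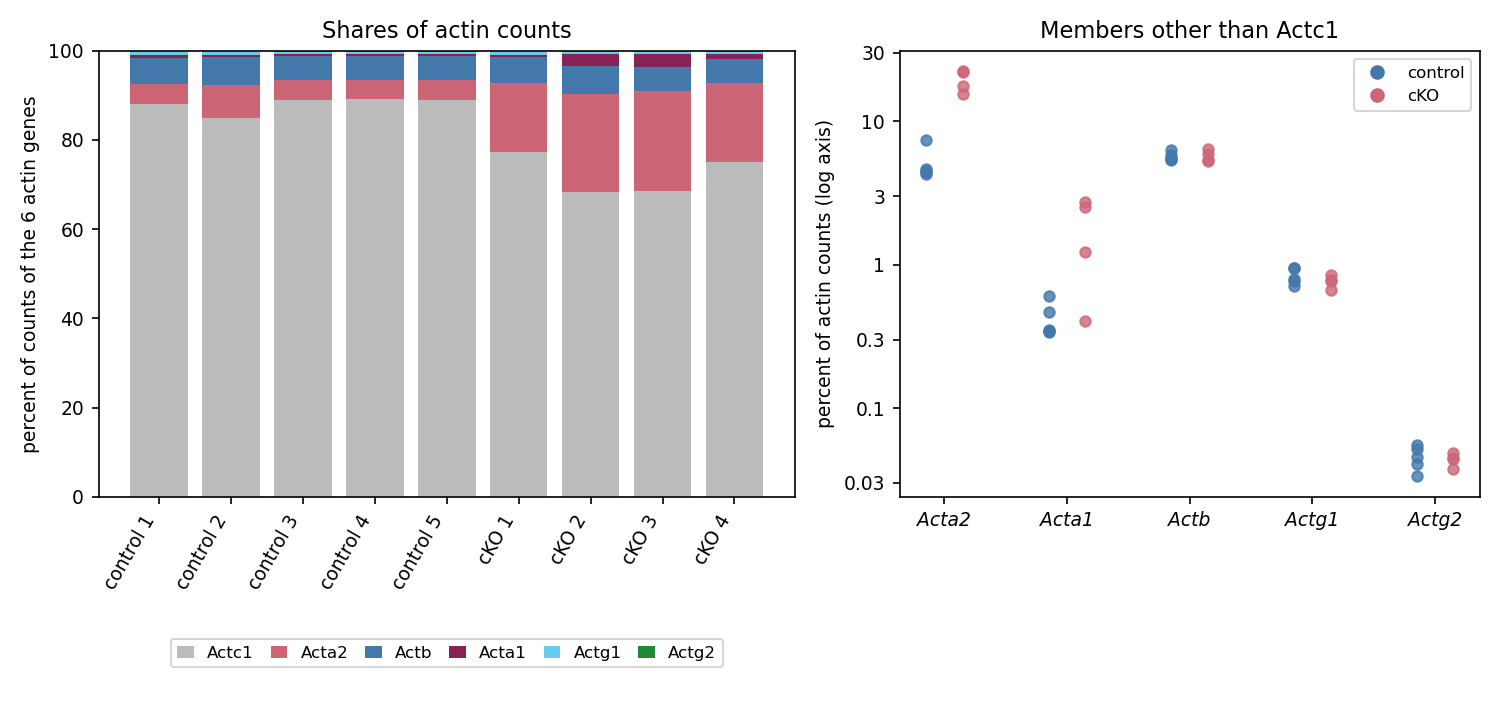
Left, the percent of the summed counts of the 6 actin genes that each gene takes in every library, as stacked bars; right, the same percent per library for the 5 genes other than Actc1, on a log axis, blue for control and red for cKO. Actc1 fills 84.9% to 89.1% of the bar in controls and 68.3% to 77.4% in cKO, and the difference is taken up mainly by Acta2.

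Acta2 and Acta1 are also expressed outside cardiomyocytes, so markers of other cells are given beside them. The 12 mural and smooth muscle markers, Acta2 not included, summed to 2208 to 2373 CPM in controls and 2177 to 2488 CPM in cKO, and the sums overlapped. Most of the sum was Rgs5 and Abcc9. Rgs5 was at 812.0 to 1001 CPM in controls and 850.0 to 1092 CPM in cKO. Abcc9 was at 512.2 to 581.9 CPM in controls and 445.2 to 595.1 CPM in cKO. Of these 12, calponin gene Cnn1 was higher, by 2.78 on the log2 scale with an SE of 0.22 (edgeR, adjusted p = 1.1e-05), Smtn was lower at -0.56 (SE 0.16, adjusted p = 0.0414), and the other 10 did not pass, among them the smooth muscle myosin gene Myh11 at -0.30 (SE 0.13, adjusted p = 0.139). The 5 markers of activated fibroblasts, which also make α-smooth muscle actin, summed to 1132 to 1386 CPM in controls and 1487 to 1852 CPM in cKO, without overlap; Postn, Cthrc1 and Comp were higher at an adjusted p under 0.05 and none was lower, while Fap at -0.31 (adjusted p = 0.104 by edgeR) and Acan at -0.22 (adjusted p = 0.289) did not pass. Nearly all of the sum was Postn, at 1084 to 1335 CPM in controls and 1434 to 1797 CPM in cKO. Over all genes 16.3% passed that threshold, 8.25% higher and 8.03% lower. The part of these cells in the level of Acta2 was not tested.

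Acta1 is the main actin of skeletal muscle, so markers of that tissue are given too. The 14 skeletal muscle markers summed to 22.7 to 45.6 CPM in controls and 117.9 to 160.8 CPM in cKO, without overlap. Most of this was Mybpc2, at 17.8 to 40.7 CPM in controls and 112.9 to 153.9 CPM in cKO. Mybpc2 rose by 2.19 on the log2 scale with an SE of 0.21 (edgeR, adjusted p = 0.00012). Without it the other 13 summed to 3.05 to 4.99 CPM in controls and 5.07 to 6.89 CPM in cKO, again without overlap, and the part of skeletal muscle in the level of Acta1 was not tested. The myogenic factors Myod1 and Myf6 were at 0 in all libraries, and Myf5 and the adult fast myosin gene Myh4 did not exceed 0.0903 and 0.579 CPM in any library. Myog lay at 0 to 0.029 CPM in controls and 0.0726 to 0.156 CPM in cKO, without overlap, and was too low to be tested. The fast troponin gene Tnnt3 lay at 0.692 to 0.997 CPM in controls and 1.19 to 1.46 CPM in cKO, also without overlap, with a log2 difference of 0.62 (edgeR, adjusted p = 0.0529). Tnni2 had a log2 difference of 0.80 (edgeR, adjusted p = 0.079), with overlap. The perinatal myosin gene Myh8, the other marker that was tested, went the opposite way, with 0.499 to 1.07 CPM in controls, 0.116 to 0.605 CPM in cKO and a log2 difference of -1.09 (edgeR, adjusted p = 0.0943). The 5 atrial markers summed to 765.2 to 969.7 CPM in controls and 998.6 to 1148 CPM in cKO, without overlap. Of the 4 that were tested 2 were higher: the atrial myosin light chain gene Myl7, from 29.1 to 65.9 CPM in controls to 83.6 to 117.4 CPM in cKO, rose by 1.197 on the log2 scale (edgeR, adjusted p = 0.00493), and Pam rose by 0.32 (adjusted p = 0.0195). Most of the sum was Pam, at 661.5 to 832.3 CPM in controls and 845.1 to 1008 CPM in cKO. The other 2 did not pass in edgeR, Sln with a log2 difference of -1.25 (adjusted p = 0.262) and Myl4 with one of 0.16 (adjusted p = 0.71). Bmp10 was at most 0.194 CPM in controls and at 0 in cKO. The 8 cardiomyocyte markers summed to 45086 to 54157 CPM in controls and 39230 to 45939 CPM in cKO, overlapping. Within the Rps3a3-low set the sums were 53757 and 54157 CPM in controls and 41099 to 45939 CPM in cKO. In the Rps3a3-high set they were 45086 to 47705 CPM in controls and 39230 CPM in the 1 cKO library. Within each set every cKO sum thus lay below every control sum. Of the 8 markers 2, Myl2 and Pln, were lower at an adjusted p under 0.05. Fibroblast markers were higher for 3 of 8 genes, against 8.25% of all genes, and epicardial markers lower for 1 of 4, against 8.03%, endothelial (6) and macrophage (5) markers did not pass, and the sums of these 4 lists overlapped between the groups. The part of atrial tissue or of cardiomyocyte number in the actin values was not tested.

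SRF and 4 partners were examined as the known regulators of actin transcription. Srf itself averaged 111.5 ± 21.3 CPM over the controls (SD, n = 5), against 105.4 ± 11.0 CPM in cKO (SD, n = 4), and the log2 difference of -0.08 had an SE of 0.13 (edgeR, adjusted p = 0.721). The coactivator genes Mrtfa at 0.35 (SE 0.14, adjusted p = 0.113), Mrtfb at -0.18 (SE 0.07, adjusted p = 0.13) and Myocd at 0.20 (SE 0.08, adjusted p = 0.11) did not pass in edgeR, although the groups did not overlap for Mrtfb. Abra, whose product STARS promotes the nuclear entry of the myocardin-related factors, rose by 0.32 (SE 0.10, adjusted p = 0.0414 by edgeR), less than the fold threshold of a call. So 1 of 5 passed an adjusted p of 0.05, where 16.3% of all genes did.

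Genes whose products bind, cap, nucleate, crosslink or fold actin were examined as lists. Of 13 genes for monomer binding and filament turnover, 2 were higher and 2 lower by adjusted p, where 16.3% of all genes passed, and 0 were called by edgeR, where 6.72% of all genes were, with a median of 0.07 against 0.01 over all genes. The profilin genes moved in opposite directions, the brain and muscle form Pfn2 by -0.53 (SE 0.07, adjusted p = 0.00024 by edgeR) and the ubiquitous Pfn1 by 0.30 (SE 0.07, adjusted p = 0.0147). Twf2, which encodes a monomer-binding twinfilin, changed by -0.41 (SE 0.10, adjusted p = 0.0195).

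Of 13 genes for capping and length of thin filaments, 2 were higher and 3 lower by adjusted p, where 16.3% of all genes passed, and the 2 called were both lower, as were 2.72% of all genes. The median of the list was -0.09. Tmod4, a pointed-end capping tropomodulin of skeletal muscle, averaged 5.70 ± 1.08 CPM over the controls (SD, n = 5), against 1.06 ± 0.231 CPM in cKO (SD, n = 4), and on the log2 scale it fell by 2.42 with an SE of 0.20 (edgeR, adjusted p = 1.0e-05). Nebl, for the cardiac thin filament protein nebulette, fell from 473.3 ± 46.8 to 306.4 ± 32.4 CPM, and on the log2 scale it fell by 0.63 with an SE of 0.09 (edgeR, adjusted p = 0.00061). Capza1, for a barbed-end capping subunit, rose by 0.44 (SE 0.10, adjusted p = 0.0089).

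Of 12 tested crosslinking genes 3 were higher and 2 lower by adjusted p, against 16.3% of all genes passing, with a median of 0.20. The 1 called, against 6.72% of all genes, was the Z-disc gene Myot, at -1.46 (SE 0.20, adjusted p = 0.00039 by edgeR). Flnc, the muscle filamin, changed by 0.52 (SE 0.14, adjusted p = 0.0255) and Actn1, a non-muscle α-actinin, by 0.48 (SE 0.07, adjusted p = 0.00048). Among 20 nucleation genes 2 were higher by adjusted p, against 8.25% of all genes, and 0 were called, against 6.72%. The 2 were Daam1 at 0.20 (SE 0.06, adjusted p = 0.0419 by edgeR) and Arpc5 at 0.19 (SE 0.06, adjusted p = 0.0458). Of the 10 tested genes for folding and modification of actin, which include the chaperonin subunits, 0 passed an adjusted p of 0.05 by edgeR, against 16.3% of all genes. Of 18 actin-related and actin-like genes 10 were tested and 2 were lower by adjusted p, against 8.03% of all genes, of which 1 was called, against 2.72% called lower. The called gene was Actr3b at -0.73 (SE 0.10, adjusted p = 0.00037 by edgeR) and the other was Actr10 at -0.22 (SE 0.06, adjusted p = 0.0371).

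The genes most like each of the main members were sought by Pearson's correlation of log2 CPM over the 9 libraries, among 10718 genes with a mean of at least 5 CPM. All libraries enter each value and genotype is shared by the points, so these are descriptions. For Acta1 they were the integrin gene Itgb5 (r = 0.973), Def8 (0.966) and Spry1 (0.959), whose own changes were only 0.30 to 0.32 on the log2 scale. For Acta2 they were Mavs (r = 0.996), Zfp251 (0.994) and Atp11a (0.993), with log2 fold changes of 0.63, 0.42 and 0.74. For Actc1 they were Sik3 (r = 0.945), Myo19 (0.935) and Prmt6 (0.898).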

How the data were processed

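The authors made TruSeq stranded mRNA libraries, sequenced single-end reads of 75 bases and mapped them to mm10; the submitters' processing notes name STAR 2.4.2a and HTSeq 0.6.1. They deposited raw read counts per Ensembl gene in 1 table, with no normalization; the annotation and strand setting are not given in the sources used here. The table held 0 other sample columns. Symbols, coordinates and exon lengths came from GENCODE M21 (GRCm38), in which 36429 of 38293 identifiers were found.

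Counts were tested with edgeR 4.0.16 in R 4.3.3 (filterByExpr with a minimum count of 10, TMM, robust quasi-likelihood F test, genotype only, two-sided, Benjamini-Hochberg over all genes tested). The SE came from the fold change and F, and 95% intervals from the t quantile at the fit's degrees of freedom. A call required an adjusted p below 0.05 with more than 1.5-fold difference. Shares were tested by exact permutation. Samples were grouped by their titles, 1 library per labelled replicate. The study's text counts replicates as hearts and its methods name 4 controls where the labels give 5, and all 5 were used. The script was tested on simulated data.

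The members and lists were chosen with earlier results of these data known. Named were the 6 members, all SRF genes, up to 3 genes with an adjusted p under 0.05 and the largest change in each other list, and the 3 genes most like Acta1, Acta2 and Actc1; markers are named as checks. Alternatives were DESeq2 1.42.0, other scalings and filters, a replicate block, the library set, the Xist level as a covariate, a fit without robust and each library left out.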

Additional observations from a re-analysis of the deposited data

Results flagged for a closer look

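In a search of 24 groups of values (CPM and share of actin counts for the 6 members in each genotype), 1 library stood apart from its group by Dixon's test, in 2 linked shares; chance flags about 1 in 20 groups. Control replicate 2 had an Acta2 share of 7.35%, while the other controls lay between 4.30% and 4.64%. Its Actc1 share was 84.9%, while the other controls lay between 88.1% and 89.1%. Without control replicate 2 the log2 fold change of Acta2 was 2.23 (adjusted p = 4.1e-06 by edgeR), and the difference of the Actc1 share was -16.4 percentage points.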

How the results depend on the processing

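Acta2, Actc1 and Actb kept the direction and the side of the threshold of their levels in all 20 fits. The shares of Acta2 and Actc1 kept their direction in all 14 settings and passed in 12, with an exact permutation p of 0.1 in the Rps3a3-low libraries and 0.125 under the replicate block, which are the smallest these 2 settings allow for any share, so neither gives a test at 0.05. Acta1 kept its direction but did not pass without the low-count filter (log2 fold change 2.18, adjusted p = 0.0581 by edgeR), with the replicate block (1.93), with the library set as a term (2.001), in the Rps3a3-low libraries alone (1.94) or with the Xist covariate (2.16), and ran from 1.87 to 2.52 without 1 library; its share difference was 1.14 percentage points within the library sets and 0.966 to 1.74 without 1 library. The cause was not tested. Actg1 turned negative with DESeq2 (-0.0016), RLE (-3.3e-05), no filter (-0.0042), the library set as a term (-0.071) and the Rps3a3-low libraries (-0.16), and ran from -0.072 to 0.088 without 1 library; its share passed within the library sets (-0.127 points, exact permutation p = 0.025). Actg2 was -0.25 in the Rps3a3-low libraries and -0.0068 to 0.22 without 1 library; its share differed by 0.000376 points per kilobase of exon, 0.000450 per kilobase of own windows, -0.0112 in the Rps3a3-low libraries and -0.0044 to 0.0010 without 1 library. The Actb share differed by -0.191 points within the library sets and by -0.180 to 0.187 without 1 library. The count of called genes was 620 in the Rps3a3-low libraries and 909 to 1171 without 1 library. Same-numbered libraries deviated together at r = 0.0227, 0.0361, 0.0107 and 0.232, so the numbers do not pair them; the replicate block gave 879 called genes and changed no member's call but that of Acta1. Depth limits Actg2, at 142 to 322 counts per library, more than the other members.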

Other observations

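The following genes were chosen after their values were seen. The gene most like Actb over the 9 libraries was Lasp1, for an actin-binding LIM and SH3 domain protein, with Pearson's r = 0.997; it changed by 0.12 (SE 0.07, adjusted p = 0.268 by edgeR). Among the markers, the genes that rose most were Cnn1, a calponin of smooth muscle actin filaments, from 3.37 to 4.52 CPM in controls to 15.6 to 38.7 CPM in cKO, and Mybpc2, the fast skeletal myosin-binding protein C, from 17.8 to 40.7 CPM to 112.9 to 153.9 CPM. In cKO replicate 1, where Acta1 was at 53.6 CPM, the sum of the skeletal markers, mostly Mybpc2, was 117.9 CPM, the lowest of the 4 cKO libraries and above the highest control at 45.6 CPM.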
